A study of Mus musculus with 34 samples.

Results

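CT010467.1 is a mouse gene record typed as ribosomal RNA (rRNA) that covers the sequence of the small-subunit rRNA, on the complementary strand. It was 1 of 4 noncoding genes considered because the annotation places them over, or beside, an rRNA-like stretch of chromosome 17. The other records are Gm42418, AY036118 and Gm26917. Of the 4 genes, 1 had a row among the 51368 genes of the table, and that gene was CT010467.1. The other 3 were not analysed here beyond their annotation and sequence. These genes were chosen for the large share of counts that CT010467.1 takes in libraries made without rRNA removal, so its level in those libraries is given as a description with no test.

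The study prepared RNA from the liver of 1 wild-type C57BL/6J mouse, aged 12 weeks, under each combination of 3 ways of enriching for other RNA, 3 PCR ramp rates (the speed of temperature change between PCR steps) and 3 fragment lengths. It thereby asked how these library choices affect RNA-seq. The ways of enriching were polyA selection (TruSeq Stranded mRNA kit), rRNA pull-down (TruSeq Stranded Total RNA Human/Mouse/Rat kit) and rRNA digestion (the Ribo-Zero Plus version of Illumina's Stranded Total RNA Prep Ligation kit, with its adapters exchanged), each with 9 liver libraries from 200 ng of RNA. In addition, 6 unselected liver libraries, 3 in each of 2 batches, and 1 unselected heart library of batch 1 were made from 20 ng of RNA with a slow ramp and medium fragments. Every polyA library belonged to batch 1 and every pull-down or digestion library to batch 2, which means that in comparisons of polyA selection with pull-down or digestion the method cannot be told apart from the batch. The labels give the animal's sex as female in a field and as male in the description of its growth. All 33 liver libraries are preparations of RNA from a single animal, so a p-value here measures the spread between preparations only.

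The nuclear rRNA genes are transcribed by RNA polymerase I as a long precursor that is cut, in the nucleolus, into the rRNA of the small ribosomal subunit and rRNAs of the large one. Repeated arrays of these genes lie on several chromosomes and are poorly represented in a genome assembly, and rRNA reads can be assigned to the few stray copies that an annotation holds. Ribosomal RNA is most of the RNA of any cell and has no poly(A) tail. Mitochondrial rRNA is made from the mitochondrial genome and is separate from these genes.

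In the GENCODE M21 annotation of GRCm38, CT010467.1 (ENSMUSG00000106106) is typed as rRNA and spans chr17:39846353-39848827 on the minus strand. Its main transcript is a single exon of 1849 bases at chr17:39846353-39848201, with a GC content of 55.4%. A shorter transcript of the gene has 4 exons, 714 bases and a GC content of 68.5%, and spans chr17:39848103-39848827. Gm42418, a long intergenic noncoding RNA (lincRNA) gene, lies over the same stretch on the plus strand at chr17:39846958-39848788. AY036118, a lincRNA gene on the minus strand at chr17:39847113-39848035, lies inside the main transcript. Gm26917, also a lincRNA gene, ends just before it, on the plus strand at chr17:39843013-39846341. RefSeq has an rRNA pseudogene, Rn18s-rs5, of 1849 bases at chr17:39846354-39848202, over the main transcript of CT010467.1, and lists Gm42418 among its other names.

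**Figure D1:**
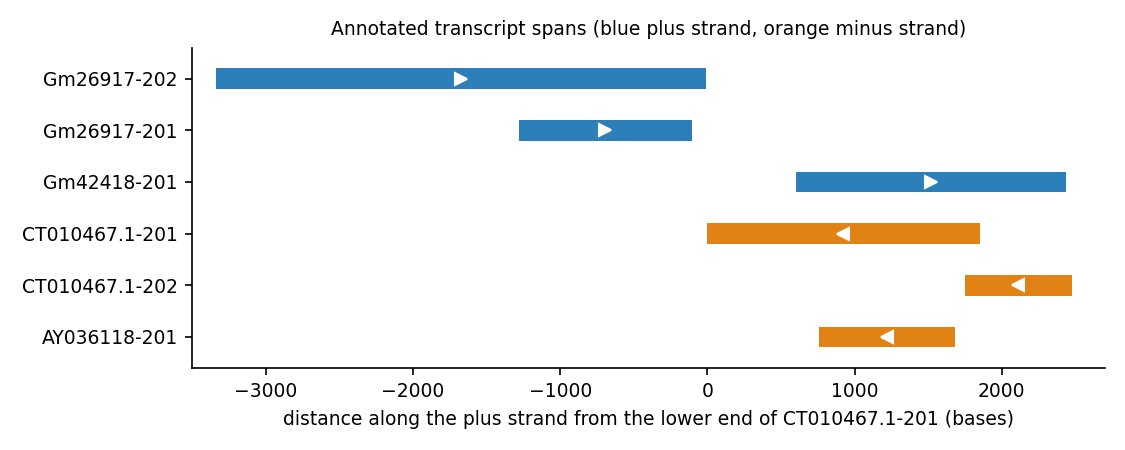
Spans of the annotated transcripts of the 4 genes, as distance in bases along the plus strand from the lower end of the main CT010467.1 transcript, with white marks pointing in the direction of transcription. CT010467.1 and AY036118 lie on the minus strand, Gm42418 and Gm26917 on the plus strand, and Gm26917 stops short of the stretch that the other genes share.

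The transcript sequences show how the 4 records relate. The first stretches below are the start of the main CT010467.1 transcript, the part of Gm42418 that holds its reverse complement (in capitals), and the part of the shorter CT010467.1 transcript in which the first bases of the main one recur (in capitals). All are DNA letters of the annotated transcripts, 5′ to 3′.
CT010467.1 main transcript, bases 1 to 50: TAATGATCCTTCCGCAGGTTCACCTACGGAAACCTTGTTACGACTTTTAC
Gm42418, bases 1183 to 1256: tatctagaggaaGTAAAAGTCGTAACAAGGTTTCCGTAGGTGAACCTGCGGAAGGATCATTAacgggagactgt
CT010467.1 shorter transcript, bases 588 to 647: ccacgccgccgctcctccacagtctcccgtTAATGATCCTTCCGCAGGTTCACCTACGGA
The capitals of Gm42418 read as the 3′ end of small-subunit rRNA, a background fact, so the annotated strand of CT010467.1 is the complement of rRNA. The shorter transcript begins outside the small-subunit sequence and runs into it, and from there matched the main one for 67 bases without a break.

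The next stretches are the end of the main CT010467.1 transcript, which is the complement of the 5′ end of small-subunit rRNA, the place where AY036118 begins within it (capitals are the first bases of AY036118), and the start of Gm26917.
CT010467.1 main transcript, bases 1800 to 1849: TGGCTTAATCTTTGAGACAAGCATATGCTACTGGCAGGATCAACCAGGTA
CT010467.1 main transcript, bases 155 to 216: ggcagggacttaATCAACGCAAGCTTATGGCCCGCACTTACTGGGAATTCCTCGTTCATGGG
Gm26917, bases 1 to 50: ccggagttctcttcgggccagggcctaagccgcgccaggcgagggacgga
AY036118 was found whole, all 923 bases, at positions 167 to 1089 of the main CT010467.1 transcript. Cut into overlapping words of 31 bases, AY036118 shared all 893 of its words with CT010467.1 on the same strand. Gm42418 shared 1735 of its 1801 words (96.3%) with CT010467.1 as reverse complements, which are 70.4% of the 2466 words of CT010467.1. Gm26917 shared none of its 3326 words with CT010467.1 in either direction. None of the words of CT010467.1 occurred, on either strand, in a transcript of any other gene of GENCODE M21. Salmon, which the submitters' processing notes name, divides a read among transcripts that match it, so a read from this stretch could go to CT010467.1, AY036118 or Gm42418 wherever those records are in the transcript set. The table as used here keeps genes that are at 0 in every library, and AY036118, Gm42418 and Gm26917 had no row in it even at 0. The transcript set and the strand setting are not given in the sources used here, and sense and antisense reads of this stretch cannot be told apart in the table.

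Library totals ran from 19873384 to 41396087 counts in 33 of the 34 libraries. The exception was a pull-down library, made at the slow ramp with long fragments, at 1126377 counts, and the fitted differences that include it are given with and without it. The summed level of 6 hepatocyte markers ran from 11310 to 98000 CPM (counts per 1000000 counts of the library) over the liver libraries and was 58.2 CPM in heart, and 6 cardiomyocyte markers summed to 8471 CPM in heart and to at most 0.773 CPM in liver, so the tissue labels match their markers.

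In unselected liver, CT010467.1 was the most abundant gene of every library and took more than all other genes together. It held 73.5%, 72.7% and 72.5% of the counts in batch 1 (mean 72.9% ± 0.519, SD, n = 3) and 71.2%, 70.0% and 70.7% in batch 2 (mean 70.6% ± 0.615, SD, n = 3). The 6 values lay within a narrow band, and those of batch 1 were all above those of batch 2. In the heart library CT010467.1 was again the most abundant gene, at 58.3% of the counts (exact binomial 95% interval 58.30% to 58.34%, for counting error only). That is 14.6 percentage points under the mean of unselected liver of the same batch. Per 1000 counts of all other genes, CT010467.1 had 1399 counts in heart and a mean of 2688 in liver of batch 1, which is 1.92-fold more. There was 1 heart library, so the tissues were not tested. Less rRNA per cell, a different mix of cells and more counts of other genes cannot be told apart in bulk tissue. Of the other rRNA genes, the mitochondrial mt-Rnr1 and mt-Rnr2 were at 59091 and 101975 CPM in heart and at 21354 to 23306 and 23377 to 25739 CPM in liver of batch 1, so they were higher in the tissue where CT010467.1 was lower.

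After polyA selection, CT010467.1 was at 2686, 2346 and 1902 CPM in the long-fragment libraries with a slow, medium and fast ramp. It was at 1932, 2112 and 2177 CPM with medium fragments and at 2422, 1685 and 1537 CPM with short fragments, in the same order of ramps. The 9 polyA values were close together, with a mean of 2089 CPM ± 366 (SD, n = 9), and CT010467.1 ranked between 52 and 83 among all genes. After rRNA digestion, CT010467.1 was at 1701, 3978 and 2659 CPM with long fragments, 2182, 3811 and 8509 CPM with medium fragments and 3210, 2519 and 2460 CPM with short fragments, again for slow, medium and fast ramps. The digestion libraries spread more widely, around a mean of 3448 CPM ± 2037 (SD, n = 9), and their range took in all but 2 of the polyA values. The highest digestion library, with a fast ramp and medium fragments, was at 2.14 times the next highest, and without it the mean was 2815 CPM ± 791 (SD, n = 8).

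After rRNA pull-down, CT010467.1 was at 216 and 86.5 CPM with long fragments and a medium and fast ramp. It was at 168, 138 and 128 CPM with medium fragments and at 178, 93.6 and 214 CPM with short fragments, for slow, medium and fast ramps. These 8 libraries had a mean of 153 CPM ± 49.8 (SD, n = 8), and none reached the levels of the polyA or digestion libraries. The lowest polyA library was 7.12 times the highest of the 8, and the lowest digestion library 7.88 times. The ninth pull-down library, made at the slow ramp with long fragments, held 143230 CT010467.1 counts, which is 12.7% of its total (exact binomial 95% interval 12.65% to 12.78%) and makes CT010467.1 its most abundant gene. Its share was 830 times the median of the other 8. The raw number of CT010467.1 counts in it was also 21.7 times the highest of the other 8, although each of those had at least 20.8 times its total. This library thus held more CT010467.1 counts in absolute terms, not only a larger share of a small total.

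**Figure D2:**
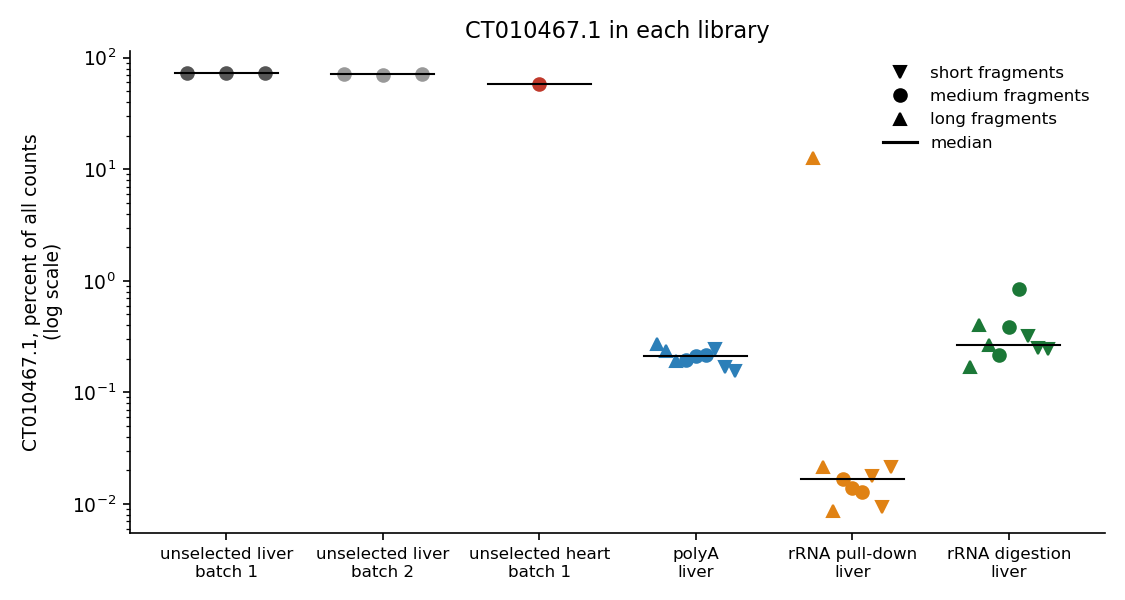
CT010467.1 as percent of all counts (log scale) in each of the 34 libraries by group; each point is a library, its shape the fragment length, and the line the group median. The unselected libraries sit between 58.3% and 73.5%, and 1 pull-down library lies at 12.7%, far above the other 8.

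Set against the unselected liver mean of its own batch, CT010467.1 had a CPM that was lower by 271-fold to 474-fold in the polyA libraries and by 83.0-fold to 415-fold in the digestion libraries. In the 8 pull-down libraries it was lower by 3273-fold to 8170-fold, and in the slow-ramp long-fragment library by 5.56-fold. CPM understates this contrast because CT010467.1 is itself most of the unselected total. Per counts of all other genes the same folds were 998 to 1746 for polyA, 281 to 1413 for digestion, 11152 to 27842 for the 8 pull-down libraries and 16.5 for the remaining one. In the fit of all liver libraries with TMM scaling (a scaling that sets most genes level between libraries), adjusted for ramp and length, the log2 differences were -9.23 for polyA, -9.88 for pull-down and -8.35 for digestion. Leaving out the slow-ramp long-fragment pull-down library, they were -10.97, -14.32 and -10.41, so this library moved all 3 values, that of pull-down most. Scaled to library totals they were -6.59, -7.64 and -5.57 with all libraries, with the median of all genes at 2.67, 2.31 and 2.85, so most genes stood higher on that scale. The values scaled to totals were -8.32, -12.05 and -7.60 without the slow-ramp long-fragment library. In the TMM fit of all libraries, 50.4%, 32.8% and 14.7% of 15422 genes were called in these contrasts at an adjusted p under 0.05, and CT010467.1 has no test here because it was chosen on them.

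The selected libraries were then compared with each other, with edgeR's quasi-likelihood F-test over the 27 libraries, ramp rate and fragment length as covariates and Benjamini-Hochberg adjustment over all genes tested. CT010467.1 was higher after digestion than after pull-down in 8 of 9 pairs matched on ramp and length, with a median CPM ratio of 18.4. With all libraries the log2 difference was 1.48 ± 1.67 (SE), edgeR adjusted p = 0.435, in a comparison in which 71.4% of 15230 genes were called. Without the slow-ramp long-fragment pull-down library it was 3.89 ± 0.276 (SE), or 14.8-fold, edgeR adjusted p = 2.833e-12, with 72.7% of 15242 genes called. CT010467.1 was thus called only without that library, and most genes were called either way. The ratio of mean CPM over the same libraries was larger, at 22.6.

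CT010467.1 was also higher after polyA selection than after pull-down in 8 of 9 matched pairs, with a median CPM ratio of 13.6. With all libraries the log2 difference was 0.78 ± 1.60 (SE), edgeR adjusted p = 0.674, and 73.4% of genes were called. Without the slow-ramp long-fragment pull-down library it was 3.47 ± 0.272 (SE), or 11.1-fold, edgeR adjusted p = 2.109e-11, with 75% of genes called. CT010467.1 was lower after polyA selection than after digestion in 8 of 9 pairs, but the difference did not pass the test. It was -0.71 ± 0.999 (SE) with all libraries, edgeR adjusted p = 0.517, where 81.3% of genes were called. Without the slow-ramp long-fragment pull-down library it was -0.42 ± 0.237 (SE), edgeR adjusted p = 0.104, where 82.4% were called, and its 95% interval ran from -0.89 to 0.04. Both of these comparisons are also comparisons of batches.

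CT010467.1 was slightly higher in long-fragment than in short-fragment polyA libraries. At each ramp rate the long-fragment polyA library was above the short-fragment one, by 1.11-fold to 1.39-fold, although the 3 long libraries (1902 to 2686 CPM) and the 3 short ones (1537 to 2422 CPM) overlapped. The log2 difference within the 9 polyA libraries was 0.36 ± 0.116 (SE), edgeR adjusted p = 0.0202, beside 55.2% of 14629 genes called. Leaving out the slow-ramp or medium-ramp long library, or the medium-ramp or fast-ramp short library, ended the call (0.27 to 0.32, edgeR adjusted p from 0.0710 to 0.108), as did DESeq2 (adjusted p = 0.119). In digestion libraries the long-minus-short difference was -0.09 ± 0.302 (SE), edgeR adjusted p = 0.897, with 17.9% of genes called. It turned to 0.11, 0.12 and 0.52 without the slow-ramp long, fast-ramp long or slow-ramp short library, none of them called, and was -0.078 and called (edgeR adjusted p = 7.592e-08) with no filter on low counts. In pull-down libraries it was 4.49 ± 3.13 (SE), edgeR adjusted p = 0.393, with 6.08% of genes called. Without the slow-ramp long-fragment library it was 0.13 ± 0.380 (SE), edgeR adjusted p = 0.814, with 37.4% called.

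**Figure D3:**
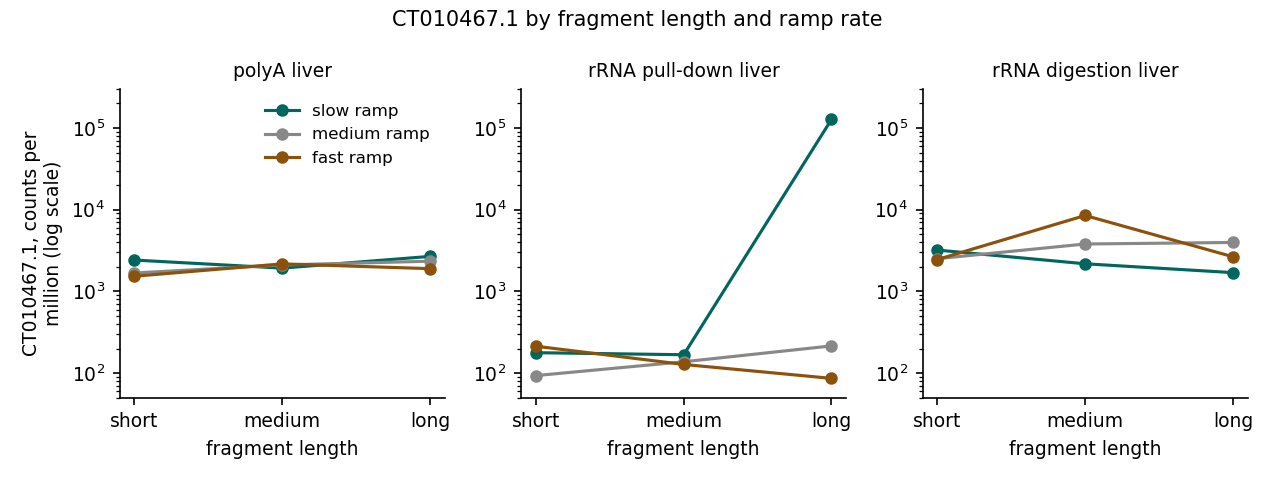
CT010467.1 in CPM (log scale) against fragment length in the polyA, pull-down and digestion libraries, with 1 line per ramp rate and 1 library per point. The slow-ramp long-fragment pull-down library stands at 127160 CPM while the other pull-down libraries lie between 86.5 and 216 CPM.

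Over the 27 selected libraries together, the long-minus-short log2 difference of CT010467.1 was 3.00 ± 1.40 (SE), edgeR adjusted p = 0.0851, where 44.7% of genes were called. DESeq2 called it with all libraries (3.03, adjusted p = 0.00437). Without the slow-ramp long-fragment pull-down library it was 0.14 ± 0.247 (SE), edgeR adjusted p = 0.665, where 49.7% were called. The test of whether the length difference itself varied between methods gave an edgeR adjusted p of 0.00725 with all libraries, where 31% of 15442 genes were called. It gave 0.871 without that library, where 39.4% were called. The fast-minus-slow ramp difference of CT010467.1 was -2.45 ± 1.47 (SE), edgeR adjusted p = 1.00, and without the same library 0.11 ± 0.246 (SE), edgeR adjusted p = 0.989. In either ramp comparison 0.0328% of all genes were called, so ramp rate gave almost no calls for any gene.

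**Figure D4:**
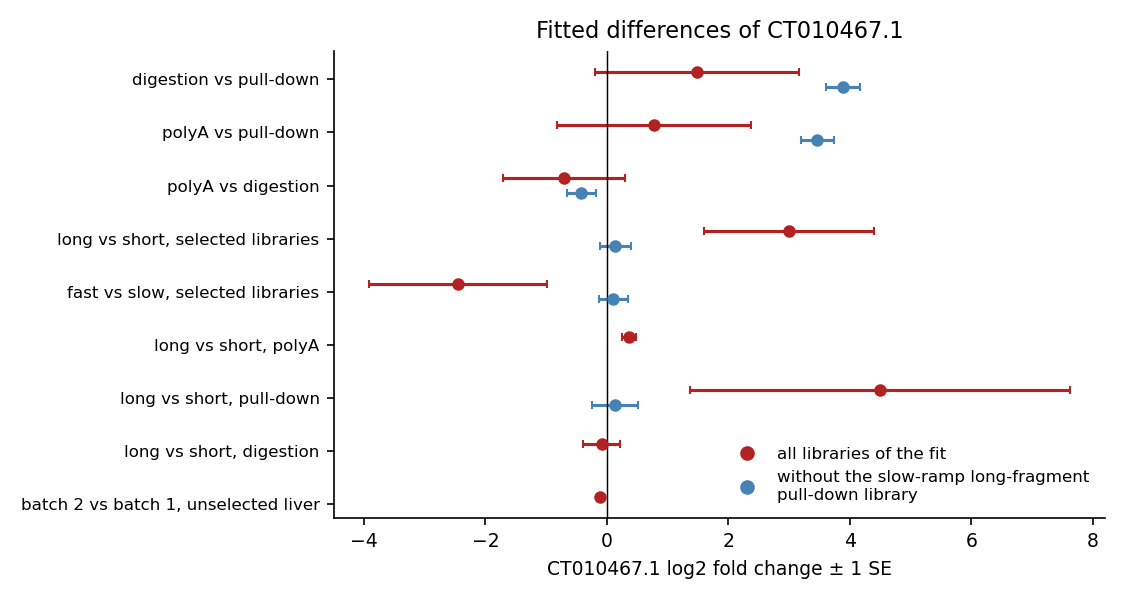
Fitted log2 fold changes of CT010467.1 with 1 standard error to each side, from all libraries of a fit (red) and without the slow-ramp long-fragment pull-down library (blue). The differences of digestion and polyA from pull-down are 1.48 and 0.78 in red and 3.89 and 3.47 in blue. The length differences over the selected libraries and within pull-down, and the ramp difference, come close to 0 in blue. The length differences within polyA (0.36) and digestion (-0.09) and the batch difference have red points only, as their fits do not hold that library.

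Between the unselected batches, CT010467.1 was slightly lower in batch 2. The mean share was 2.23 percentage points lower, and the 3 values of each batch did not overlap. The log2 difference was -0.10 ± 0.0175 (SE), edgeR adjusted p = 0.00138, in a comparison in which 0.366% of 10642 genes, 39 in all, were called. The call was lost with library totals as the scaling (-0.04, edgeR adjusted p = 0.331), with DESeq2 (adjusted p = 0.0510), and without the first or the third batch 1 library. The mitochondrial genes mt-Rnr1 and mt-Rnr2 were both called higher in batch 2.

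The mitochondrial rRNA genes were far higher after pull-down than after the other methods, opposite to CT010467.1 in the 8 pull-down libraries. Beside CT010467.1 the table holds 307 other rRNA genes, of which 272 were at 0 in every library, and apart from mt-Rnr1 and mt-Rnr2 none had more than 3 counts in a library. Where CT010467.1 was lowest, in the 8 pull-down libraries, mt-Rnr1 and mt-Rnr2 were highest among selected libraries, at 19289 to 33545 CPM and 122446 to 201662 CPM. In digestion libraries mt-Rnr2 was at 307 to 722 CPM and in polyA libraries at 262 to 634 CPM. For mt-Rnr1 these ranges were 992 to 1650 CPM and 225 to 518 CPM, and it was lower after polyA selection than after digestion by a log2 difference of -1.79 (-1.75 with all libraries) with an edgeR adjusted p of 6.441e-15 (6.517e-14), the direction in which CT010467.1 did not pass the test. Without the slow-ramp long-fragment library, mt-Rnr2 fell by 8.98 on the log2 scale from pull-down to digestion (SE 0.183, edgeR adjusted p = 4.353e-23), and mt-Rnr1 fell by 4.81 (SE 0.111, edgeR adjusted p = 4.002e-22), whereas CT010467.1 was higher by 3.89. With all libraries these changes of mt-Rnr2 and mt-Rnr1 were -8.89 and -4.78. The slow-ramp long-fragment pull-down library had 23281 CPM of mt-Rnr1, inside the range of the other 8, and 74342 CPM of mt-Rnr2, below it.

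The gene whose CPM tracked CT010467.1 most closely over the 27 selected libraries was Lars2, which encodes the mitochondrial leucyl-tRNA synthetase. Pearson's r of log2(CPM + 0.5) was 0.967, the highest of 14008 genes, and 0.974 (rank 2) over 26 libraries without the slow-ramp long-fragment pull-down library, where Stx16 came first (r = 0.975). The next genes over 27 libraries were Polg2, a subunit of the mitochondrial DNA polymerase (r = 0.918), and Zfp593 (r = 0.916). Without that library their r was 0.888 and 0.883, and they ranked 1271 and 1382. Within polyA, digestion and the 8 pull-down libraries, r was -0.38, 0.0677 and 0.382 for Polg2 and -0.292, 0.148 and 0.772 for Zfp593, so neither gene tracked CT010467.1 closely within the polyA or the digestion libraries. In the slow-ramp long-fragment pull-down library they had 16 and 8 counts. By contrast, r of Lars2 with CT010467.1 within a method was 0.901 over the 9 polyA libraries, 0.977 over the 9 digestion libraries and 0.913 over the 8 pull-down libraries, and Spearman's rho was 0.850, 0.917 and 0.881. Leaving out the 2 libraries farthest from the median of CT010467.1, r was 0.794 for polyA and 0.902 for digestion. These values are descriptions: the libraries share an RNA sample, and a correlation across CPM also carries the totals.

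Lars2 was below CT010467.1 in every library and, like it, was highest in unselected libraries and lowest in the 8 pull-down libraries. It was at 77935 to 87829 CPM in unselected liver, 61371 CPM in heart, 117 to 219 CPM after polyA selection, 86.2 to 361 CPM after digestion and 10.4 to 21.2 CPM in the 8 pull-down libraries. In the slow-ramp long-fragment pull-down library it was at 20476 CPM, so the same library stood apart in both genes. For each 1000 CT010467.1 counts there were 106 to 111 Lars2 counts in unselected liver of batch 1, 120 to 125 in batch 2 and 105 in heart. The pull-down libraries had 80.2 to 161 and the polyA libraries 73.1 to 100.2. The digestion libraries had 36.6 to 50.8, below every other library, so these libraries had fewer Lars2 counts for each CT010467.1 count. In the fit without the slow-ramp long-fragment library, Lars2 was higher after digestion than after pull-down by 2.63 on the log2 scale (edgeR adjusted p = 3.795e-10), less than the 3.89 of CT010467.1, and the difference between the genes was not tested. With all libraries that Lars2 difference was -0.01 (edgeR adjusted p = 0.998). Lars2 was higher after polyA selection than after digestion by 0.51 (edgeR adjusted p = 0.0286) in the fit without that library and by 0.15 (edgeR adjusted p = 0.897) with it, whereas CT010467.1 was at -0.42 and -0.71. CT010467.1 shares none of its words of 31 bases with annotated Lars2 transcripts, on either strand. The main transcript of CT010467.1 covers small-subunit sequence, and the shorter one also holds sequence outside it. Lars2 was not compared with large-subunit rRNA, so whether its counts come from rRNA was not tested.

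**Figure D5:**
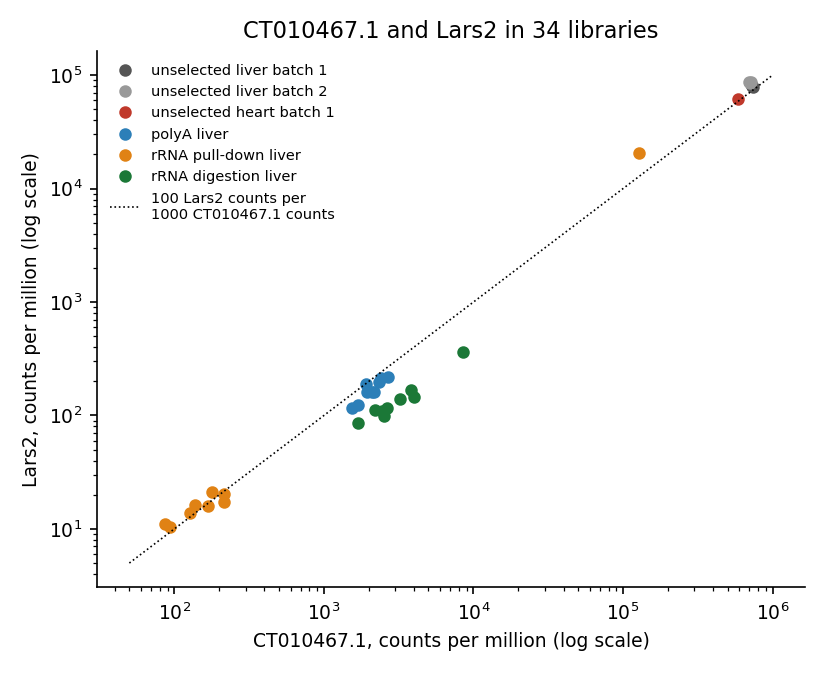
Lars2 against CT010467.1 in CPM (both axes log scale) in the 34 libraries, with a dotted line at 100 Lars2 counts per 1000 CT010467.1 counts. Most libraries lie near the line over the whole range, and the 9 digestion libraries lie below it, at 36.6 to 50.8.

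Protein-coding genes that make and process nuclear rRNA were mostly lower after digestion than after pull-down, and more of them were higher than lower after polyA selection. Of 21 RNA polymerase I transcription genes, 1 was higher and 18 were lower after digestion than after pull-down, where 31.8% of all genes tested were higher and 39.7% lower, with a median log2 difference of -0.60 beside -0.06 for all genes, and the counts were the same without the slow-ramp long-fragment library. Of 38 rRNA processing and modification genes, 5 were higher and 31 lower (28 without that library), with a median of -0.40. Between polyA selection and digestion, 15 of the 21 and 32 of the 38 were higher in polyA libraries (14 and 32 without that library), and 5 and 2 were lower (5 and 4 without it), where 41.3% of all genes were higher and 40% lower. Between polyA selection and pull-down, 10 of the 21 and 20 of the 38 were higher in polyA libraries, and 5 and 6 were lower (10 and 20 higher, 6 and 7 lower, without that library), where 36.9% of all genes were higher and 36.4% lower. Among them Ncl, the nucleolar protein nucleolin, was higher after polyA selection than after digestion by 1.56 ± 0.0469 (SE) on the log2 scale, edgeR adjusted p = 2.179e-20. Npm1, the nucleolar chaperone nucleophosmin, was higher by 1.21 ± 0.0536 (SE), edgeR adjusted p = 5.804e-17. Taf1d, a subunit of the factor that brings RNA polymerase I to its promoter, was lower after polyA selection, at -2.31 ± 0.0818 (SE), edgeR adjusted p = 5.303e-19. Of the other most abundant genes of these lists, Ubtf was at 0.54, Rcl1 at 0.63 and Polr1a at -0.23, all called. Without the slow-ramp long-fragment pull-down library they were at 0.51, 0.60 and -0.26. The differences of Ncl, Npm1 and Taf1d were 1.53, 1.18 and -2.34 without the slow-ramp long-fragment pull-down library.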

How the data were processed

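The authors deposited a table of expected counts for 51368 genes in 34 libraries. UMI-tools 1.1.1, Salmon 1.9.0, R 4.4.0 and the build GRCm38 are named in the submitters' processing notes. The transcript set, strand setting and handling of UMI duplicates are not given in the sources used here. Groups, ramp, length and batch came from the labels. Symbols, coordinates and transcript sequences came from GENCODE M21 (GRCm38), which matched 50820 identifiers, and RefSeq annotation of GRCm38.p6 was used for Rn18s-rs5.

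Expected counts were rounded and tested with edgeR 4.0.16 (limma 3.58.1, R 4.3.3): TMM, filterByExpr, quasi-likelihood F-test, Benjamini-Hochberg adjustment over all genes tested, threshold 0.05. The fit was checked on simulated counts for digestion against pull-down, where all of 200 genes changed by 4-fold among 15230 were recovered. Of the genes called in that check, 1.961% were false calls. Whether the fit recovers a change in a gene with the spread of CT010467.1 between pull-down libraries was not tested. CPM is the count scaled to the library total (counts per 1000000). Each SE of an edgeR difference was worked back from its F, as the size of the difference over the square root of F. It is therefore not an estimate of precision separate from the test. For digestion minus pull-down with all libraries it was 1.67, where DESeq2 gave an SE of 0.943. Named genes were the 4 rRNA-locus genes, in the table or not, and, by likeness, the 3 genes with the highest r among genes with a median of at least 10 counts. Alternatives were library totals, totals without CT010467.1, DESeq2 1.42.0, no filter, leaving out each library, and a replicate block for the batch comparison. Totals of 19873384 to 41396087 counts make counting error of CT010467.1 small beside its spread between libraries, and 1126377 in 1 pull-down library still left 143230 counts for CT010467.1. Intervals of a share cover counting error only. The interval of a log2 difference was built from its SE and so reflects the spread between libraries in the fit. The genes, lists and tests were chosen with earlier results of these data known.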

Additional observations from a re-analysis of the deposited data

Results flagged for a closer look

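Among the 9 pull-down libraries, the CT010467.1 level of the slow-ramp long-fragment library stood apart from the others, with a gap to the next library of 0.999 of the whole range. Among the 9 digestion libraries, the fast-ramp medium-fragment library stood apart with a gap of 0.666 of the range. Its Lars2 level (361 CPM) and its mt-Rnr2 level (722 CPM) were also the highest of the digestion libraries. By chance such a gap is flagged in about 5% of groups, and 6 checks were made. The long-minus-short difference of CT010467.1 differed between methods, with an edgeR adjusted p of 0.00725 for the interaction, and of 0.871 without the slow-ramp long-fragment pull-down library.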

How the results depend on the processing

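Other processing was tried for each fitted difference of CT010467.1: of 41 alternatives with all libraries, 36 kept the direction and the call, 3 lost a call, 2 gained one and 0 reversed. With DESeq2, the long-minus-short difference over the selected libraries was 3.03 (adjusted p = 0.00437) and so gained a call, that of polyA libraries was 0.36 (adjusted p = 0.119) and the batch difference -0.10 (adjusted p = 0.0510), both losing theirs. With library totals the batch difference was -0.045 (edgeR adjusted p = 0.331). With no filter on low counts the digestion length difference was -0.078 (edgeR adjusted p = 7.592e-08) and was called. The causes were not tested. Leaving out 1 library at a time, digestion minus pull-down ran from 0.75 to 3.89, polyA minus pull-down from 0.054 to 3.47, polyA minus digestion from -1.02 to -0.11, long minus short from 0.14 to 3.71 and fast minus slow from -3.23 to 0.11. Within methods, long minus short ran from 0.27 to 0.53 in polyA, 0.13 to 7.70 in pull-down and -0.51 to 0.52 in digestion, where it reversed to 0.11, 0.12 and 0.52 without the slow-ramp long, fast-ramp long or slow-ramp short library. The interaction F ran from 0.216 to 19.6 and the batch difference from -0.12 to -0.094. The ramp difference reversed, to 0.11, without the slow-ramp long-fragment pull-down library, whose removal was chosen after seeing the data for the gene lists and the differences from unselected liver. In rRNA processing genes it moved the count lower in polyA than in digestion from 2 to 4. With the replicate number as a block the batch difference was -0.11 (edgeR adjusted p = 0.00164) and 82 genes, not 39, were called. Same-numbered libraries correlated at 0.000892, -0.0483 and -0.0706 across genes, so the numbers do not pair the libraries. Depth limits no value of CT010467.1 itself.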
